A study of Mus musculus with 4 samples.

Results

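The genes described here encode the transcription factors Nrf1 (*Nfe2l1*) and Nrf2 (*Nfe2l2*), the repressor Bach1, the small Maf proteins that pair with them (*Maff*, *Mafg* and *Mafk*), the Nrf2 adaptor *Keap1*, and 2 enzymes that process Nrf1 (*Ddi2* and *Ngly1*). They were taken by name, as every noncontrol probe whose transcript accession carries one of these symbols in RefSeq. The rule uses no measured value, although the set was proposed with earlier results of these data known. This gave 9 genes and 12 probes, of 20133 genes and 26581 probes that could be named. *Mafg* had 3 probes, *Ddi2* had 2 and the remaining 7 genes had 1 each. All 12 probes were well above background on all 4 arrays, and no spot of theirs carried an outlier flag.

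The RNA came from J774.1 cells, a mouse monocyte-macrophage line, kept for 4 h with the solvent DMSO or with 1 μM of MG132, epoxomicin or ONX0914, and each condition was measured on 1 single-color Agilent array, with all 4 arrays on 1 slide. MG132 is a general proteasome inhibitor, epoxomicin acts on the 20S proteasome, and ONX0914 acts on the β5 and β5i subunits. The treatment label of the ONX0914 array reads ONX-0912, whereas its protocol names ONX0914. With 1 array per condition no spread between cultures could be measured, and no test was run.

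Nrf1 and Nrf2 belong to the CNC group of basic leucine zipper (bZIP) proteins. They bind the antioxidant response element (ARE) as dimers with a small Maf protein, which has no activation domain of its own, and Bach1 takes the same sites with a small Maf and represses them. Nrf1 is made in the endoplasmic reticulum, drawn out of the membrane, freed of sugars by Ngly1 and cut by Ddi2, and it then drives the genes of proteasome subunits when proteasome activity is short. Nrf2 is held by Keap1 and passed to a Cul3 ubiquitin ligase, so that it too is normally destroyed by the proteasome. The arrays measured RNA, so neither the cutting nor the turnover of these proteins was measured.

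The 250 bases before each RefSeq start of the 9 genes (build GRCm38.p6) were searched on both strands for 5 motifs, because several of these genes are known to carry AREs of their own. The motifs were the ARE core TGACNNNGC, the AP-1 site TGACTCA, the cyclic AMP response element (CRE) TGACGTCA, the ATF-C/EBP composite TGATGNAA and GAANNTTC, a pair of facing heat-shock units. An AP-1 site followed by GC counts under both the ARE core and the AP-1 site. All 9 genes had a promoter entry, with 15 windows in total, since *Nfe2l1* has 5 starts, some of whose windows overlap, and *Maff* has 3. The ARE core occurred in 4 of the 15 windows and in 4 of the 9 genes, *Nfe2l2*, *Maff*, *Mafg* and *Mafk*, against 10.2% of 32851 windows and 11.5% of 27025 genes in the table. The CRE occurred in 1 window, at an internal start of *Maff*, against 1.55% of all windows. No window of the 9 genes held the other three motifs, which occurred in 4.46% (AP-1), 3.45% (ATF-C/EBP) and 6.69% (heat-shock) of all windows. The windows with a match and that of *Bach1*, which had none, are shown here 5′ to 3′ on the strand of the gene, with the matched letters in capitals. A capital run that reads GC first is a match on the opposite strand.
*Nfe2l2*: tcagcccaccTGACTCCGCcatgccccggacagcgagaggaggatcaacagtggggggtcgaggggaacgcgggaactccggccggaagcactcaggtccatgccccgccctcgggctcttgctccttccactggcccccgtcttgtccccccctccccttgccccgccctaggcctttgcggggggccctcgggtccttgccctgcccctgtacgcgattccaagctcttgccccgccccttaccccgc
*Maff*, first start: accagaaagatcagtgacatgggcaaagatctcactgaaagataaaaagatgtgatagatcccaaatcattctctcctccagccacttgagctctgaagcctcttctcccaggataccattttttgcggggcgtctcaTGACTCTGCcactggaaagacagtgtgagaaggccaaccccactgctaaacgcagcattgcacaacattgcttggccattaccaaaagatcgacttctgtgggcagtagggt
*Maff*, internal start with the CRE: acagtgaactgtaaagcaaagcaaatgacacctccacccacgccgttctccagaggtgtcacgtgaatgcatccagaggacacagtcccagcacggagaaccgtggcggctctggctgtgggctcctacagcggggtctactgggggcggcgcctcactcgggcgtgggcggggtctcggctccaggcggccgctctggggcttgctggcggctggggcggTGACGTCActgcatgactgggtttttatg
*Mafg*: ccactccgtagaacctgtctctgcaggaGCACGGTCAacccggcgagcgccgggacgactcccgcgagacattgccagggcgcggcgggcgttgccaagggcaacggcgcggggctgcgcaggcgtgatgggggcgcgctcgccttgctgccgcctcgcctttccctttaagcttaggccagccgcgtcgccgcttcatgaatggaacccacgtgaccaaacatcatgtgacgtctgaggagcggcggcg
*Mafk*: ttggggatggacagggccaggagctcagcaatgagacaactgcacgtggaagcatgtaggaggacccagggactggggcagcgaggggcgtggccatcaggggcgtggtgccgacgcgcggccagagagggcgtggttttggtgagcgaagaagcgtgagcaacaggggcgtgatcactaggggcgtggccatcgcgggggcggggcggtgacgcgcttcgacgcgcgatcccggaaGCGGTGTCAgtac
*Bach1*: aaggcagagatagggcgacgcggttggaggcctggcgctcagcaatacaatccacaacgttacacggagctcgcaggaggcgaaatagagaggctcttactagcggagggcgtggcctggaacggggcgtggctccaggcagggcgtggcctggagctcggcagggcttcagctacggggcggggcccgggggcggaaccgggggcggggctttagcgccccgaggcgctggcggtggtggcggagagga

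The *Nfe2l2* window lies at chr2:75704664-75704913 on the minus strand, and its match begins 240 bases before the start. The windows of *Maff* lie at chr15:79346371-79346620, with the ARE core 112 bases before the first start, and at chr15:79347270-79347519, inside the gene, with the CRE 29 bases before the internal start, both on the plus strand. The *Mafg* window lies at chr11:120633548-120633797 on the minus strand, inside the span of the gene, and its match begins 222 bases before the start. The *Mafk* window lies at chr5:139791286-139791535 on the plus strand with its match 13 bases before the start, and the *Bach1* window lies at chr16:87698704-87698953 on the plus strand. These 6 windows held 48.0% to 70.4% G or C, against a median of 52.4% over all windows. A match describes the letters in the window and does not show that a factor binds there.

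**Figure D1:**
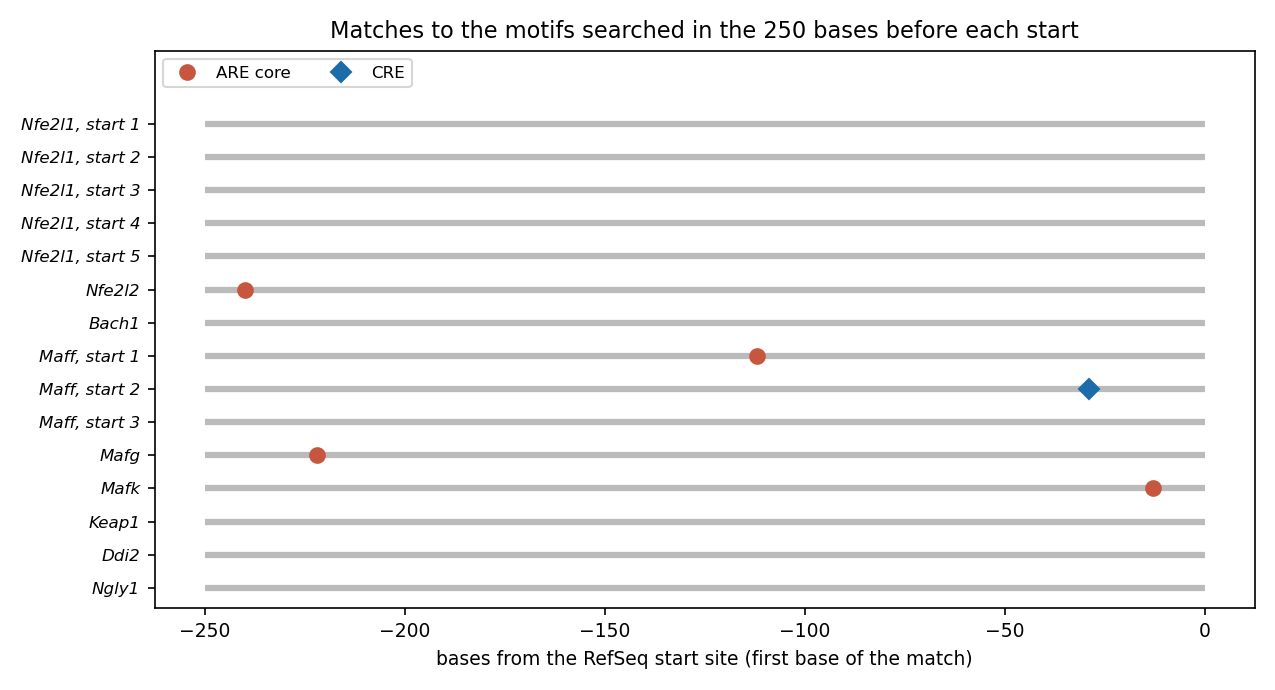
Each gray bar is the 250 bases before a RefSeq start of one of the 9 genes, with distance from the start in bases on the x axis. Circles mark the first base of an ARE core and the diamond that of a CRE. The 4 ARE cores lie 240, 222, 112 and 13 bases before the starts of *Nfe2l2*, *Mafg*, *Maff* and *Mafk*.

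Across the 9 genes, RNA of *Bach1*, *Maff* and *Mafk* differed most from DMSO, and that of *Nfe2l1* and *Nfe2l2* was past 1.5-fold higher with at least 1 inhibitor. On the brightest probe of each gene, *Mafg*, *Keap1*, *Ddi2* and *Ngly1* stayed within 1.5-fold. With normexp, another background correction, *Ngly1* left that range, as did *Mafg* with MG132 (0.70) and ONX0914 (0.61). The further *Mafg* probes were past 1.5-fold with MG132 (0.61 and 0.70), and with ONX0914 they gave 0.52 and 0.60. In the values below, signals are the processed intensities of the scanner software. Differences are on the log2 scale after subtraction of each array's 75th percentile, which was 1654.2 for DMSO, 1453.4 for MG132, 1682.9 for epoxomicin and 1612.5 for ONX0914, so an unscaled signal on the MG132 array understates the scaled level. The error given with a difference is the software's own error of the signals involved, about 0.20 for each gene but *Ngly1*, and it is not a spread between cultures. A difference of 1 on this scale, which is 2-fold, was the size from which a gene counted as called. All 3 inhibitors were compared with the same DMSO array, so a high or low value on that array would enter each of the 3 differences.

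Of the 9 genes, 3 were at least 2-fold higher with MG132 (*Bach1*, *Maff* and *Mafk*), where 7.24% of 13768 genes compared were higher by that much. The count was also 3 with epoxomicin, where the share over all genes was 8.41% of 13869. It was 2 with ONX0914 (*Bach1* and *Maff*), where the share was 3.27% of 13792. No gene of the 9 was lower by 2-fold or more with any inhibitor, against 3.65%, 4.49% and 1.41% of all genes. The median difference of the 9 genes was 0.66 (MG132), 0.60 (epoxomicin) and 0.43 (ONX0914), whereas the medians over all genes were -0.022, -0.043 and -0.0080. With each inhibitor 8 of the 9 genes lay above 0, compared with 47.9%, 46.3% and 48.8% of all genes. The counts above 0 include *Ngly1* with MG132 (0.29) and epoxomicin (0.15) and *Keap1* with ONX0914 (0.034), whose signs changed with other settings. The sign of *Keap1* with MG132 (-0.089), which lay below 0, changed as well. At 1.5-fold, 5, 5 and 4 of the 9 genes were higher, against 14.9%, 16.4% and 7.59% of all genes. These counts hold values near the line that fell under it with other settings. They are *Nfe2l1* with epoxomicin (0.60) and ONX0914 (0.61), and *Nfe2l2* with MG132 (0.66).

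**Figure D2:**
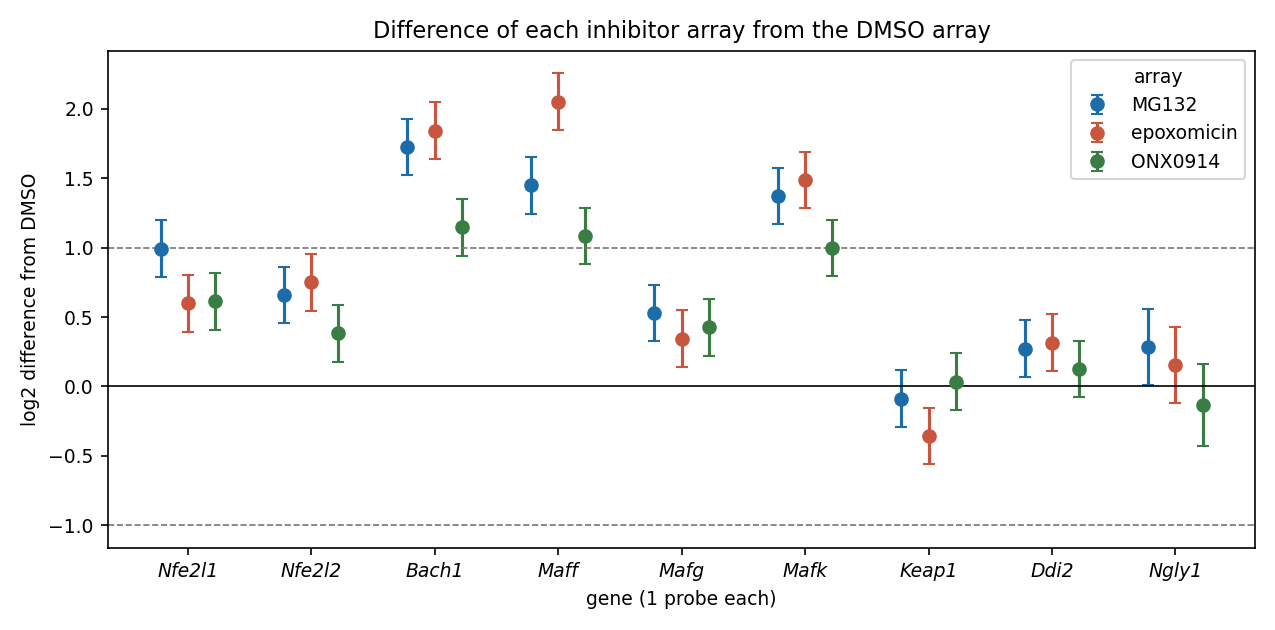
Log2 difference of each inhibitor array from the DMSO array for the 9 genes, 1 probe each; bars are the scanner software's error and dashed lines mark 2-fold. *Bach1*, *Maff* and *Mafk* lie above the upper line with MG132 and epoxomicin, and *Mafk* lies just under it with ONX0914 at 0.9974.

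*Nfe2l1* encodes Nrf1, the factor of the proteasome recovery response (chr11:96817414-96829968). Its signal was 534.1 (DMSO), 934.1 (MG132), 822.5 (epoxomicin) and 796.0 (ONX0914). Each inhibitor array lay above DMSO, with MG132 the highest. The difference was 0.99 ± 0.20 with MG132 (1.99-fold), just short of the 2-fold line, 0.60 ± 0.20 with epoxomicin and 0.61 ± 0.20 with ONX0914. With normexp these values were 0.70, 0.27 and 0.32. The values with epoxomicin and ONX0914 lay close to 1.5-fold. They fell under it with normexp and with several scalings, such as quantile normalization (0.57 and 0.56). The share of all genes with a larger difference came to 7.34% (MG132), 16.1% (epoxomicin) and 7.09% (ONX0914).

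*Nfe2l2* encodes Nrf2, the main regulator of the response to oxidants and electrophiles (chr2:75675513-75704663). Its signal was 7466.8 (DMSO), 10366.8 (MG132), 12786.6 (epoxomicin) and 9490.2 (ONX0914). Again every inhibitor array was above DMSO, here with epoxomicin the highest and ONX0914 the lowest of the 3. The differences were 0.66 ± 0.20 (1.58-fold), 0.75 ± 0.20 (1.68-fold) and 0.38 ± 0.20 (1.30-fold). The value with MG132 fell under 1.5-fold with scaling by the median of each array (0.56) and without scaling (0.47). From 12.4% to 13.0% of all genes had larger differences, so that *Nfe2l2* held nearly the same place in the 3 comparisons.

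*Bach1* encodes the heme-binding repressor that occupies AREs with a small Maf (chr16:87698954-87733346). Its signal was 1123.0 (DMSO), 3263.2 (MG132), 4096.9 (epoxomicin) and 2424.2 (ONX0914). All 3 inhibitor arrays were more than 2-fold above DMSO, with ONX0914 the closest to it. The differences were 1.73 ± 0.20 (3.31-fold), 1.84 ± 0.20 (3.59-fold) and 1.15 ± 0.20 (2.22-fold). *Bach1* had the largest difference of the 9 genes with MG132 and with ONX0914, and 2.63%, 2.88% and 2.64% of all genes lay above it in the 3 comparisons. Its promoter window, printed above, held none of the 5 motifs.

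Of the small Maf genes, *Maff* is known to be induced by stress (chr15:79346621-79359078). Its signal was 575.4 (DMSO), 1381.6 (MG132), 2428.3 (epoxomicin) and 1188.9 (ONX0914). The epoxomicin array stood clearly above MG132 and ONX0914, which in turn were above DMSO. The differences were 1.45 ± 0.20 (2.73-fold), 2.05 ± 0.20 (4.15-fold) and 1.08 ± 0.20 (2.12-fold), and the value with epoxomicin was the one difference of 4-fold or more among the 9 genes. The value with ONX0914 was the one nearest above the 2-fold line, and it fell below the line with another background correction (0.74 with normexp).

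*Mafk*, a small Maf found in many cell types (chr5:139791536-139802653), gave signals of 1367.4 (DMSO), 3111.7 (MG132), 3903.0 (epoxomicin) and 2661.0 (ONX0914). The order of the arrays was the same as for *Maff* and *Bach1*. The differences were 1.37 ± 0.20 (2.59-fold), 1.49 ± 0.20 (2.81-fold) and 0.9974 ± 0.20, the last value lying just under the line. *Mafk* and *Nfe2l1* (0.9933 with MG132) were the values nearest below 2-fold.

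*Mafg*, the small Maf often found with Nrf2 at its target genes (chr11:120625117-120634955), gave signals of 31115.5 (DMSO), 39482.8 (MG132), 40184.1 (epoxomicin) and 40778.2 (ONX0914) on its brightest probe. All inhibitor arrays were above DMSO and close to each other. The differences were 0.53 ± 0.20, 0.34 ± 0.20 and 0.43 ± 0.20. Its further probes gave 0.61 and 0.70 with MG132, 0.33 and 0.36 with epoxomicin, and 0.52 and 0.60 with ONX0914. The 3 probes thus had the same sign and order of inhibitors, with MG132 the largest and epoxomicin the smallest difference, and none reached 2-fold.

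*Keap1* encodes the oxidant sensor that hands Nrf2 to its ligase (chr9:21229730-21239332). Its signal was 8660.4 (DMSO), 7155.8 (MG132), 6877.6 (epoxomicin) and 8640.6 (ONX0914). The epoxomicin array was the lowest after scaling, and the other inhibitor arrays lay near DMSO. The differences were -0.089 ± 0.20, -0.36 ± 0.20 and 0.034 ± 0.20. Only the value with epoxomicin exceeded its error, and the sign of the values with MG132 and ONX0914 depended on the processing (0.082 for MG132 with normexp, -0.0083 for ONX0914 with a percentile over detected probes).

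*Ddi2* encodes the aspartic protease that cuts Nrf1 (chr4:141683563-141723419). Its signal was 3553.4 (DMSO), 3772.3 (MG132), 4499.1 (epoxomicin) and 3782.2 (ONX0914). The arrays lay close together, with epoxomicin the highest. The differences were 0.27 ± 0.20, 0.32 ± 0.20 and 0.13 ± 0.20, and those of its second probe were 0.20, 0.31 and 0.15. *Ngly1* encodes the N-glycanase that removes the sugars of Nrf1 (chr14:16249314-16311926). Its signal was low, 41.9 (DMSO), 44.9 (MG132), 47.4 (epoxomicin) and 37.3 (ONX0914). These signals lie near the lowest ones called well above background, which ran from 14.7 to 20.35 by array, and the arrays did not separate. The differences were 0.29 ± 0.27, 0.15 ± 0.28 and -0.13 ± 0.29, and with normexp they became -0.86, -1.04 and -1.46. Normexp without outlier spots, chosen after seeing the data, gave 0.54, 0.36 and -0.056, so no direction is given for *Ngly1*.

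**Figure D3:**
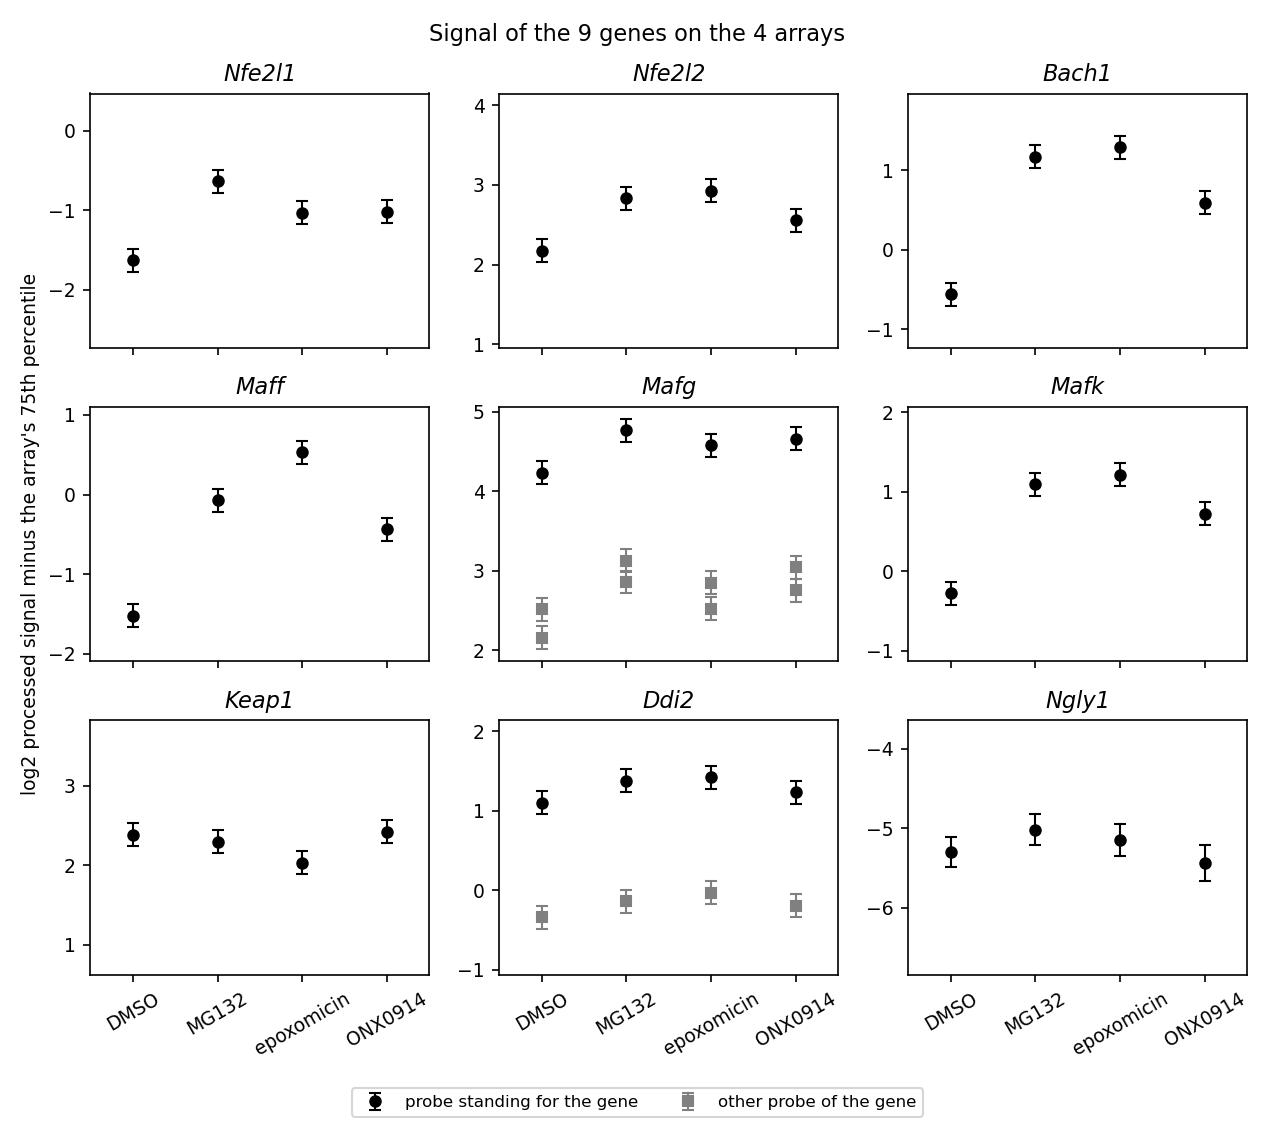
Log2 processed signal minus the array's 75th percentile for the 9 genes on the DMSO, MG132, epoxomicin and ONX0914 arrays, 1 array each; bars are the scanner software's error and gray squares are further probes of *Mafg* and *Ddi2*. Each panel spans a range of its own and levels are not to be compared between probes; *Bach1*, *Maff* and *Mafk* are lowest with DMSO and highest with epoxomicin.

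**Figure D4:**
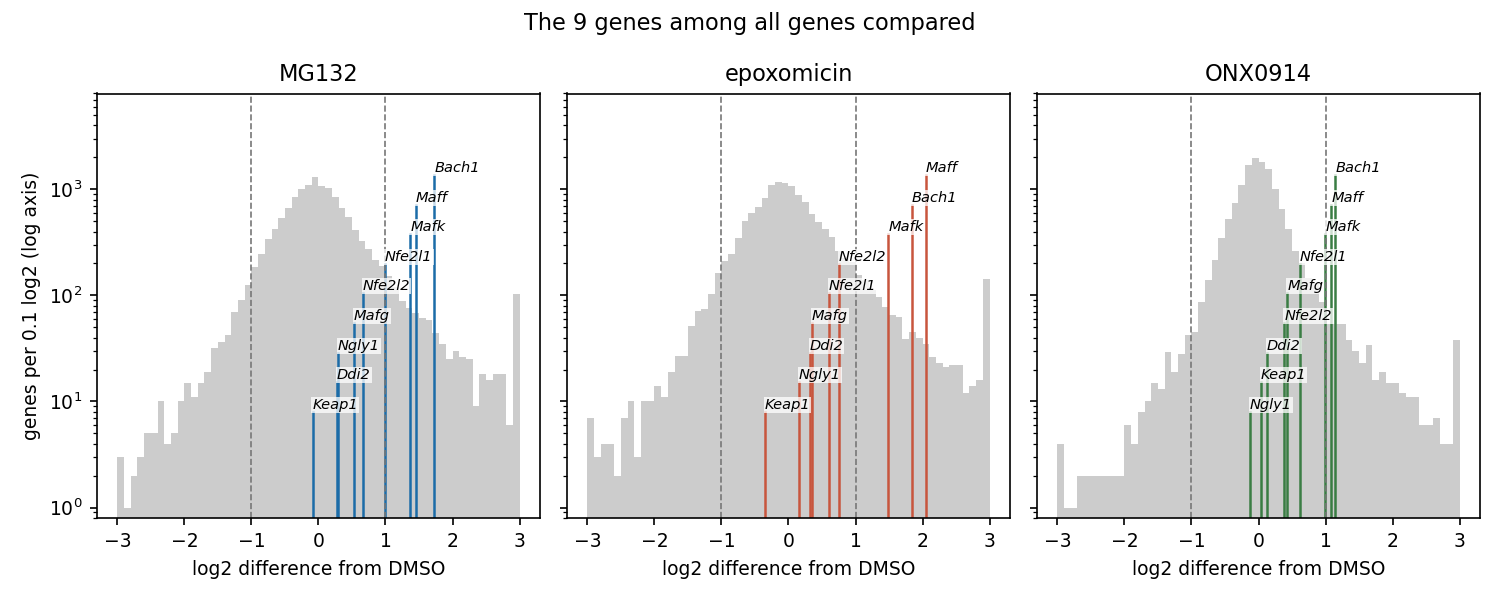
Histograms of the log2 difference from DMSO over all genes compared with each inhibitor (13768, 13869 and 13792 genes; log count axis), with values beyond 3 in either direction gathered in the end bars. Vertical lines mark the 9 genes; line height carries no value, and dashed lines mark 2-fold. The lines of *Bach1*, *Maff* and *Mafk* lie in the right tail and that of *Keap1* lies near or below 0.

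At the same dose and time the inhibitors could be compared directly, without the DMSO array, for the 9 genes and 3 pairs of arrays. None of the 9 genes differed 2-fold between epoxomicin and MG132, where 1.5% of 13626 genes did, between ONX0914 and MG132 (4.12% of 13704) or between ONX0914 and epoxomicin (5.94% of 13791). The largest gap was that of *Maff*, which was lower with ONX0914 than with epoxomicin by a log2 difference of -0.97 ± 0.20 (1.96-fold lower). *Bach1* followed, with -0.70 ± 0.20 against epoxomicin and -0.58 ± 0.20 against MG132. *Mafk* differed by -0.49 ± 0.20 and -0.38 ± 0.20 in the same comparisons.

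With ONX0914, 8 of the 9 genes were lower than with MG132, *Keap1* (0.12 ± 0.20) being the exception, and 6 of the 9 were lower than with epoxomicin. Over all genes, 52.6% and 54.7% were above 0, that is, higher with ONX0914, in these comparisons. The medians of the 9 genes were -0.37 and -0.29, against 0.024 and 0.047 over all genes. MG132 and epoxomicin lay closer together, with a median of 0.043 and 5 of the 9 genes higher with epoxomicin, close to the 50% of all genes. The widest gaps between them ran in opposite directions, 0.60 ± 0.20 for *Maff*, higher with epoxomicin, and -0.40 ± 0.20 for *Nfe2l1*, higher with MG132. Between ONX0914 and epoxomicin, *Nfe2l1* differed by 0.014 ± 0.20. Without replicate arrays, no spread between cultures exists to judge these gaps by, and a gap within its error does not show that inhibitors act alike.

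Other genes of the 2 pathways were taken from lists chosen by function. The counts in these lists are to be read beside the shares of all genes at least 2-fold from DMSO. These were 7.24% (MG132), 8.41% (epoxomicin) and 3.27% (ONX0914) higher, and 3.65%, 4.49% and 1.41% lower. In the shorter lists a small count says little beside such shares. Among the further CNC factors, *Bach2*, a lymphoid relative of *Bach1*, was the one detected, with differences of -0.37 (MG132), -0.71 (epoxomicin) and -0.23 (ONX0914), and *Nfe2* and *Nfe2l3* were not well above background on any array. Of the large Maf genes, which carry an activation domain, *Maf* was at least 2-fold lower with each inhibitor, with signals of 2723.8 (DMSO), 621.4 (MG132), 801.0 (epoxomicin) and 1095.9 (ONX0914) and differences of -1.95, -1.79 and -1.28. *Mafa* gave 0.0039, -0.14 and -0.022, and *Nrl* was not detected.

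Of the 10 genes for extraction of Nrf1 from the endoplasmic reticulum, 9 could be compared and 1 was at least 2-fold higher with each inhibitor. The shares over all genes were 7.24% (MG132), 8.41% (epoxomicin) and 3.27% (ONX0914). The gene past 2-fold was *Herpud1*, a stress-induced part of the membrane ligase complex, with differences of 2.21, 2.26 and 1.87. *Nploc4* and *Ufd1*, cofactors of the segregase p97, gave 0.87, 0.69 and 0.96, and 0.51, 0.50 and 0.48. The medians of the 9 were 0.067, -0.0093 and 0.31. Among 5 genes of the Keap1 ligase and of proteins that compete for Keap1, *Sqstm1* was the one past 2-fold. It encodes p62, an autophagy receptor that binds Keap1 and ubiquitin, and its signal was 4801.3 (DMSO), 25593.6 (MG132), 24906.2 (epoxomicin) and 18331.6 (ONX0914). Its differences were 2.60, 2.35 and 1.97, whereas the medians of the 5 genes were -0.14, 0.014 and 0.053. *Rbx1*, the RING subunit of the ligase, gave -0.49, -0.57 and -0.088.

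The 8 genes of the phosphodegron route, in which GSK3 and the β-TrCP or Fbxw7 ligases mark Nrf1 and Nrf2, held no member past 2-fold, with medians of -0.12, -0.27 and -0.14. *Dcaf11*, the substrate receptor of another ligase, had -0.61, -0.57 and -0.12 and *Fbxw11*, which encodes a β-TrCP protein, had 0.48, 0.61 and 0.11. The 6 genes for coactivators and a sugar transferase, among them *Ep300* and *Hcfc1*, likewise had no member past 2-fold, with medians of -0.078, -0.15 and -0.069. Of 5 other bZIP genes, 3 were at least 2-fold higher with MG132 (*Jun*, *Junb* and *Atf4*), where 7.24% of all genes were, 4 with epoxomicin (8.41%) and 1 with ONX0914 (*Atf4*; 3.27%). *Atf4*, the effector of the integrated stress response, gave 1.12, 1.08 and 1.27, and the AP-1 genes *Jun* and *Junb* gave 1.15, 1.45 and 0.25, and 1.29, 1.34 and 0.71. The fourth gene with epoxomicin was *Fos*, at 0.72, 1.39 and -0.60, and the remaining gene, *Jund*, gave -0.019, 0.078 and 0.089, both named after their values were seen.

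Among the genes these factors control are those of proteasome subunits, known targets of Nrf1. A list of 38 constitutive proteasome genes, which also held assembly factors and an activator, had no member past 2-fold. Over all genes, 7.24% (MG132), 8.41% (epoxomicin) and 3.27% (ONX0914) were higher by that much and 3.65%, 4.49% and 1.41% were lower. The medians of the 38 genes were 0.22, 0.20 and 0.38. Their values ran from -0.57 to 0.85 (MG132), from -0.63 to 0.86 (epoxomicin) and from -0.27 to 0.79 (ONX0914), the lowest being those of assembly factors. *Adrm1*, a ubiquitin receptor, gave 0.85, 0.82 and 0.73, and *Psmc6* and *Psmd12*, subunits of the regulatory particle, gave 0.82, 0.75 and 0.79, and 0.74, 0.86 and 0.60. Of 16 targets of Nrf2, 15 could be compared and 5 were at least 2-fold higher with each inhibitor, against 7.24% (MG132), 8.41% (epoxomicin) and 3.27% (ONX0914) of all genes, with medians of 0.47, 0.27 and 0.56. *Slc7a11*, the cystine transporter, had signals of 27.7 (DMSO), 1205.8 (MG132), 1230.5 (epoxomicin) and 491.4 (ONX0914), and differences of 5.63, 5.45 and 4.19. Its DMSO signal lay near the lowest one called well above background on that array (14.7), so the size of these differences rests on little signal above background with DMSO. *Hmox1*, the heme oxygenase known to be held down by Bach1, gave 2.47, 2.29 and 1.26, each past 2-fold. *Srxn1*, a sulfiredoxin, gave 1.94, 1.71 and 1.35. The rest were *Gclm* (1.77, 1.51 and 1.36) and *Me1* (1.45, 1.38 and 1.33), named after their values were seen. *Nqo1* was not well above background on any array. The 10 reference genes held no member past 2-fold, with medians of -0.023, -0.13 and 0.0067.

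The genes whose 3 differences lay nearest to those of *Bach1* were *Hrh1*, *Gtse1* and *Hspa2*, at Euclidean distances of 0.10, 0.10 and 0.12 log2 among 12729 genes detected on all 4 arrays. *Hspa2*, a relative of the inducible heat-shock proteins, gave 1.65, 1.87 and 1.07. Nearest to *Maff* were *Herc6*, *9930111J21Rik2* and *Phf11a*, at 0.12, 0.21 and 0.22. *Herc6*, an interferon-inducible gene, gave 1.56, 2.03 and 1.09, beside 1.45, 2.05 and 1.08 for *Maff*. Likeness over 3 differences that share the DMSO array is a description of 4 arrays.

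**Figure D5:**
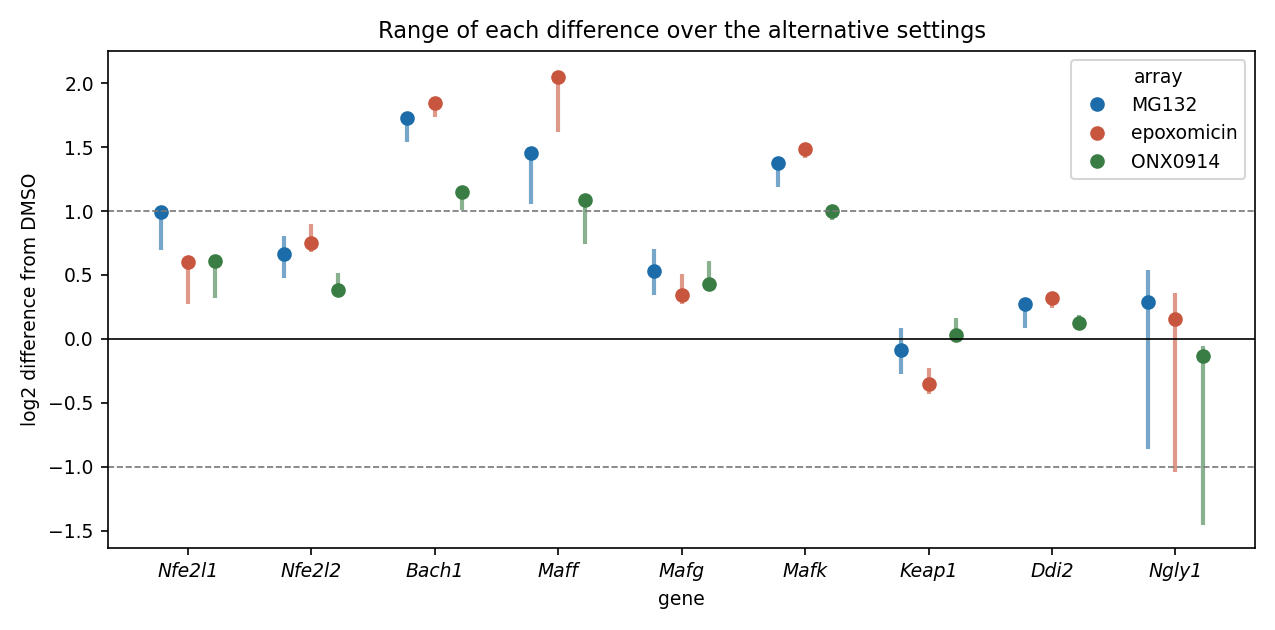
Log2 difference from DMSO of the 9 genes as reported (points) with the range over 9 other ways of processing (lines), by inhibitor; dashed lines mark 2-fold. *Bach1* stays above the upper line with all 3 inhibitors, *Maff* with ONX0914 reaches down to 0.74, and the lines of *Ngly1* are the longest, down to -1.46.

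The labelled cell line was checked against marker genes. Of 9 macrophage markers with a named probe, 8 were well above background on all 4 arrays and *Mrc1* on none. Of 7 markers of other cells, *Epcam*, *Col1a1*, *Ncr1* and *Alb* were not well above background on any array, and *Cd3e*, *Pecam1* and *Gfap* were on all 4, with signals of 21.5 to 849.5 over the 3 genes. The summed signal of the macrophage markers was 359470 (DMSO), 277156 (MG132), 313586 (epoxomicin) and 339486 (ONX0914), and that of the other markers was 1045, 998, 817 and 981. These sums are of unscaled signals, and the 75th percentile was lowest on the MG132 array (1453.4). The differences of the 9 genes are scaled, so the order of these sums is not set against them. After scaling, the 8 detected macrophage markers had median differences of -0.15 (MG132), -0.10 (epoxomicin) and 0.0063 (ONX0914). They ranged from -0.60 to 0.35 with MG132, from -1.01 to 0.21 with epoxomicin and from -0.29 to 0.21 with ONX0914. Of the 8, 1 was past 2-fold, *Lyz2*, which was lower with epoxomicin, where 4.49% of all genes were lower by that much. In bulk RNA of a culture, fewer cells of a kind and less RNA per cell cannot be told apart, and the part of either in the results above was not tested.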

How the data were processed

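The authors deposited, for each of 4 arrays, the output of Feature Extraction 10.7.1.1, in which the processed intensity of a spot is background-subtracted but not scaled between arrays. A second deposited table, normalized by the authors with GeneSpring, holds 39483 log2 values. Its column medians were -0.048 (DMSO), 0.018 (MG132), -0.019 (epoxomicin) and 0.013 (ONX0914), and its differences between arrays lay within 0.033 of those given here for the 12 probes, which settles its scale and direction. Its centring per probe cancels in such differences. That table served as an alternative.

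The file headers give a mouse design annotated on mm9, although the Methods name a human one. Probes were therefore named through their accession with RefSeq (GRCm38.p6), and gene coordinates are of that build. Control spots and outlier spots were left out, the log2 intensity was reduced by the array's 75th percentile, and spots of a probe were averaged. The probe with the highest mean stood for a gene. A comparison used the genes detected (well above background) on 1 or both of its arrays. On the array without detection, the lowest signal well above background took the place of a dimmer signal as a bound. Where that bound turned the sign of a difference, the gene was left out of that comparison. From 60.3% to 63.1% of 43020 noncontrol spots were well above background, and no spot was saturated. The median SD between spots of one probe was 0.055 to 0.061 by array. The number of arrays limits the precision.

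The genes, the 12 lists and the motifs were chosen with earlier results of these data known. Beside the 9 genes, the rule names at most 3 per list, those with the largest mean difference, and the 3 genes most like each gene that was 2-fold from DMSO with every inhibitor. Genes not detected, the markers of other cells, *Fos*, *Jund*, *Gclm* and *Me1* are named outside it. The rest of each list is given as counts and medians, and some genes were left out of the lists and are not reported here. Alternatives were normexp background correction (offset 50), the same without outlier spots, other scalings, the authors' table, outlier spots kept, the mean over probes, and thresholds of 1.5-fold and 4-fold. Calculations were tested on simulated data and used limma 3.58.1 in R 4.3.3, and pandas 2.3.3, numpy 2.4.6 and matplotlib 3.10.9 in Python 3.11.15.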

Additional observations from a re-analysis of the deposited data

How the results depend on the processing

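Of the 8 differences past 2-fold, 7 stayed past it under all 9 alternatives, the exception being *Maff* with ONX0914 (0.74 with normexp, 0.97 with normexp without outlier spots, an alternative chosen after seeing the data). Of 19 others, 17 stayed under 2-fold, the exceptions being *Ngly1* with epoxomicin (-1.04) and ONX0914 (-1.46) with normexp. Of 243 recomputed values, 196 moved by less than 0.086 on the log2 scale. Normexp without outlier spots left 1 gene past 2-fold with ONX0914. At 1.5-fold the counts were 5 (MG132), 5 (epoxomicin) and 4 (ONX0914), and at 4-fold 0, 1 and 0. Between inhibitors, 1.5-fold gave 1 gene higher with epoxomicin than with MG132, against 2.35% of all genes. It gave 2 lower with ONX0914 than with epoxomicin, against 11.3% of all genes. No scaling gave 1 gene past 2-fold for ONX0914 against epoxomicin. The median of the 9 genes with MG132 was 0.56 with the median of each array and 0.47 without scaling, which shifted the median of all genes to -0.20. With epoxomicin the median was 0.50 with normexp and 0.49 with normexp without outlier spots, and with ONX0914 it was 0.52 with the mean over probes. Over all genes, those higher numbered 470, 568 and 192 with normexp and 601, 695 and 214 without outlier spots (997, 1166 and 451 as reported). Those lower numbered 2522, 3025 and 2704, and 283, 378 and 74 (503, 623 and 194 as reported). No scaling gave 903 lower with MG132, and with ONX0914 the authors' table gave 358 lower and genes detected on all arrays 289 higher and 102 lower. The cause of these shifts was not tested. *Ngly1* was dim, so its values rest on little signal above background, and with 1 array per condition no replicate could be left out.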
